A study of Mus musculus with 10 samples.

Results

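The 10 genes described here mark the GABA interneurons of the striatum and were taken by symbol, with no measured value in the choice, from the 32531 gene symbols counted in each library. They are Sst, Npy, Nos1, Chodl and Cort of the somatostatin class, Pvalb, Pthlh and Kit of the parvalbumin class, Calb2 of the calretinin class and Lhx6, a transcription factor gene of interneurons born in the medial ganglionic eminence (MGE). All 10 symbols were found in the counts.

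RNA came from the whole striatum of adult mice of the line Drd2-TRAP CP101, which carry ribosomal protein L10a fused to EGFP under control of the Drd2 gene and had self-administered cocaine or saline by vein in short sessions. The groups are 5 ribosome-bound libraries after cocaine self-administration (cocaine IP 1 to 5) and 3 after saline self-administration (saline IP 1, 2 and 4), immunopurified with antibodies to EGFP, with 1 unbound library after cocaine and 1 input library after saline. All of the animals carry the transgene. Whether each library is 1 animal or a pool is not in the labels; the spread behind every p-value is that between libraries and may be technical.

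Striatal GABA interneurons are scarce inhibitory cells whose axons stay within the striatum, unlike those of the medium spiny neurons (MSNs). Fast-spiking parvalbumin cells inhibit MSNs at the cell body, low-threshold-spiking cells release somatostatin, neuropeptide Y and nitric oxide, and calretinin cells form a further, less uniform class. MSNs of the indirect pathway and cholinergic interneurons express Drd2, which makes them the cells this tag is directed to. Parvalbumin and Lhx6 are also expressed in the neighbouring globus pallidus, calretinin in the thalamus and Kit in mast cells, so that none of these genes is confined to interneurons of the striatum.

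Reads counted to genes came to 22975667 to 31631137 per IP library, 20882691 in the unbound library and 18408782 in the input. Levels are given as CPM, the reads of a gene scaled to a common total of gene reads per library. The floor was set at 3 reads, which are worth 0.0948 to 0.131 CPM in an IP library. The IP libraries carried the marks of indirect-pathway neurons. Drd2 averaged 1974 ± 341 CPM (SD, n = 5) in cocaine IP and 390 CPM in unbound RNA, and its level of 2380 ± 231 CPM (SD, n = 3) in saline IP compares with 402 CPM in input RNA. The unbound and input libraries have no replicate and are the only libraries of lane 1, so a lane effect and the RNA fraction cannot be told apart. In bulk RNA, fewer cells of a type and less RNA per cell cannot be told apart either.

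Sst and Cort encode closely related neuropeptides, so their counts could be exchanged where the transcripts match. The last 45 coding bases of each, which hold the short mature peptide, are shown with the bases that match the other gene in capitals (GENCODE transcripts, mm10).
Sst, chr16:23889732-23889776, minus strand: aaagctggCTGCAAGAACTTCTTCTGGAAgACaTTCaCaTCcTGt
Cort, chr4:149125267-149125311, minus strand: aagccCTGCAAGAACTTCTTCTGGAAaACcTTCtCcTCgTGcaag
Of 42 aligned bases 31 were identical, 73.8%, with Cort shifted by 3 bases. The longest run shared by the whole transcripts was 21 bases, within this stretch.

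The Sst promoter is where the cyclic AMP response element was worked out, the motif that the factor CREB binds. The 250 bases before the RefSeq start of Sst hold it (GRCm38.p6, chr16:23890845-23891094, minus strand), in capitals, with its first base 48 bases before that start. The GENCODE model of Sst reaches to 23890958, so part of this stretch, with the motif, lies within that model.
Sst promoter: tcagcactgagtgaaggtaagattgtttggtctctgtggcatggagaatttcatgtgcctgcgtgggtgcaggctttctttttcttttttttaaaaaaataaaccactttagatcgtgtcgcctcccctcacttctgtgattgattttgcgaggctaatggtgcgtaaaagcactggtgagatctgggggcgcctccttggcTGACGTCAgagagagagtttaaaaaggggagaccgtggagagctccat
The motif searched is TGACGTCA, which reads the same on both strands, over 250 bases before to 50 after each start. It lies in 1.79% of 32851 promoters in the table and, of the 9 interneuron genes matched there, in Sst alone. A match describes the letters and says nothing of binding in these cells.

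All 10 interneuron genes had lower CPM in every cocaine IP library than in unbound RNA and in every saline IP library than in the input. Of all genes with any read, 48.8% and 53.3% met the same rule. A stricter rule asked every IP library to lie at or below a ratio of 1 to 2, with reads under 3 set at 3, for genes averaging 1 CPM or more over the libraries compared. By it, 7 of 7 members that passed the filter were lower after cocaine and 9 of 9 after saline. The background for this rule was 13.3% and 16.1% of genes. Higher by the same margin were 0 members in either comparison, against a background of 2.67% and 0.909%. Only 6 members (Sst, Npy, Nos1, Pvalb, Kit and Lhx6) averaged 1 CPM in the IP libraries themselves. Calb2, and after saline also Pthlh and Chodl, passed through their level in the reference library and had to differ, so the count over them is no support. For the members that passed, including these, log2 ratios had a median of -4.39 ± 0.49 (SD, n = 5) to unbound RNA and -4.52 ± 0.37 (SD, n = 3) to input. The medians over all genes were -0.019 and -0.11. Over only the 6 members that averaged 1 CPM in the IP libraries, the median log2 ratios were -3.98 and -4.37. All genes at that level had medians of 0.03 and -0.05.

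**Figure D1:**
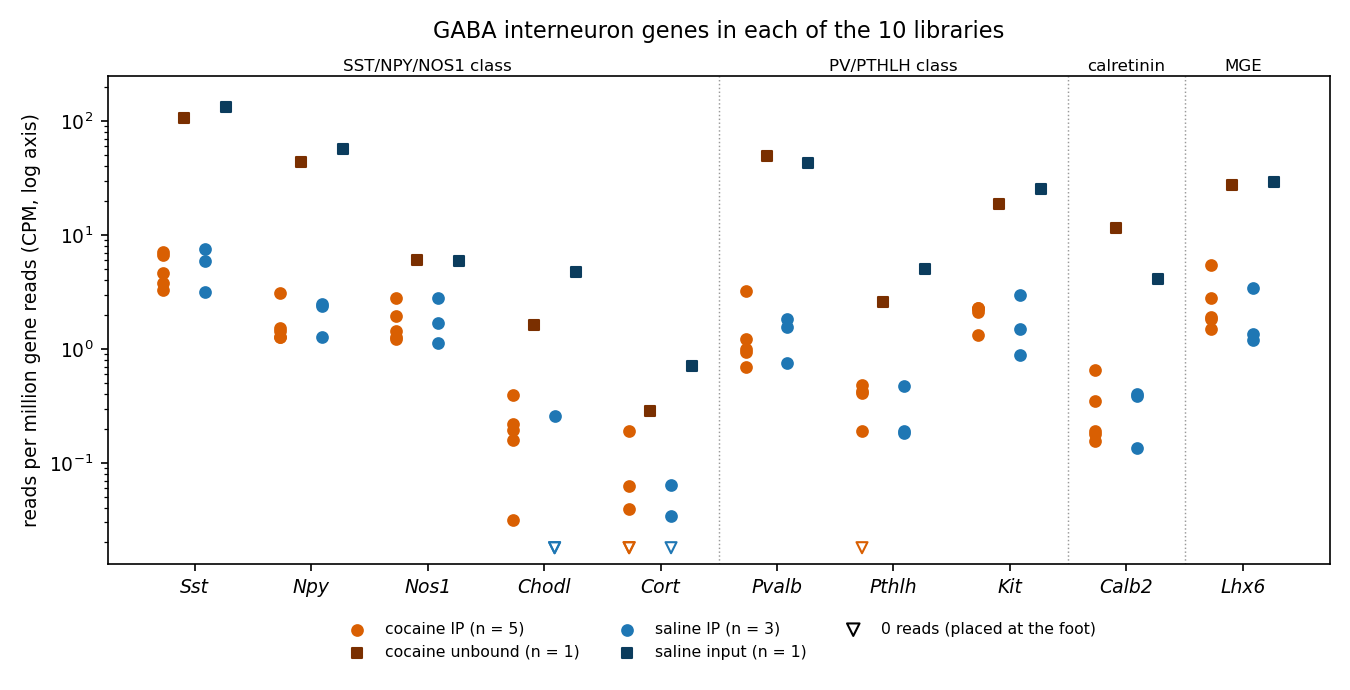
Level of each interneuron gene (CPM, log axis) in every library, with 1 point per library; squares are the single unbound and input libraries, and open triangles mark 0 reads. All IP points lie under the square of the same treatment, and Sst in cocaine IP (3.26 to 7.09 CPM) lies far below its unbound level of 107 CPM.

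In the somatostatin class, Sst, the gene of the inhibitory peptide somatostatin (chromosome 16, 23889573 to 23890958), had 6.68, 3.26, 3.79, 4.61 and 7.09 CPM in cocaine IP 1 to 5, against 107 CPM in unbound RNA. It had 5.92, 3.13 and 7.49 CPM in saline IP 1, 2 and 4, against 134 CPM in the input. No IP library came near its reference. Pooled over libraries, Sst was 21.3-fold lower in cocaine IP (95% counting interval 19.6 to 23.2) and 24.5-fold lower in saline IP (22.2 to 27.1). These intervals are exact, and they cover counting error only. Npy, the neuropeptide Y gene (chromosome 6, 49822710 to 49829507), had 1.26 to 3.10 CPM in cocaine IP and 44.0 CPM in unbound RNA, and 1.26 to 2.50 CPM in saline IP against 56.8 CPM in the input. The mean log2 ratios of Npy were -4.77 ± 0.54 (SD, n = 5) and -4.86 ± 0.55 (SD, n = 3), close to those of Sst at -4.46 ± 0.49 (SD, n = 5) and -4.70 ± 0.65 (SD, n = 3).

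Nos1 was lowered less than Sst and Npy. It encodes neuronal nitric oxide synthase (chromosome 5, 117781032 to 117958840), and its level was 2.79, 1.22, 1.26, 1.95 and 1.44 CPM in cocaine IP 1 to 5, against 5.99 CPM in unbound RNA. In saline IP 1, 2 and 4 it was 2.82, 1.12 and 1.68 CPM, against 5.92 CPM in the input. Library 1 of each treatment held the most and library 2 the least. Nos1 was 3.41-fold lower in cocaine IP (counting interval 2.73 to 4.25) and 3.12-fold lower in saline IP (2.43 to 3.99). Its log2 ratio exceeded that of Sst in 5 of 5 cocaine IP libraries, by 2.60 ± 0.44 (SD, n = 5), and in 3 of 3 saline IP libraries, by 2.93 ± 0.55 (SD, n = 3). This contrast was picked after its values were seen and has no test. The 2-fold call of Nos1 ended in both comparisons with TMM scaling (mean log2 ratios -1.67 and -1.55) and, against input, with DESeq2 size factors (-1.60). A prior of 1 CPM also ended it in both (-1.39 and -1.31). Its exons span 11151 bases in all, and the gene model Gm26995 lies within it on the other strand and Gm37028 on its own strand; its reads are uncertain wherever counting ignored strand.

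Chodl and Cort were near the read floor. Chodl, the gene of the membrane lectin chondrolectin, which in cortex marks long-range somatostatin neurons, had 5, 11, 1, 5 and 5 reads in cocaine IP 1 to 5, against 34 in unbound RNA. It had 8, 0 and 0 reads in saline IP 1, 2 and 4, against 87 in the input. Pooled, Chodl was 8.42-fold lower in cocaine IP (counting interval 4.93 to 14.5) and 52.0-fold lower in saline IP (25.2 to 124). Cort, the cortistatin gene, had 6, 0, 2, 1 and 0 reads in cocaine IP, against 6 in unbound RNA, and 2, 1 and 0 in saline IP, against 13 in the input. With 4 of 5 cocaine IP libraries and all 3 saline IP libraries at 3 reads or fewer, Cort was 4.46-fold lower in cocaine IP (1.31 to 14.0) and 20.7-fold lower in saline IP (5.69 to 113). Its size of change is therefore known only within these wide bounds.

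In the parvalbumin class, Pvalb encodes the calcium buffer of fast-spiking cells (chromosome 15, 78191114 to 78206400). It had 3.20, 1.004, 0.696, 0.937 and 1.22 CPM in cocaine IP 1 to 5, against 49.2 CPM in unbound RNA, and 1.57, 0.749 and 1.83 CPM in saline IP 1, 2 and 4, against 43.0 CPM in the input. Cocaine IP 1 was the highest of the 8 IP libraries and still far under unbound RNA. Pvalb was 33.8-fold lower in cocaine IP (counting interval 29.1 to 39.5) and 31.2-fold lower in saline IP (25.8 to 38.2).

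Pthlh, the parathyroid hormone-related peptide gene, which in striatum marks the wider class that includes parvalbumin cells, was scarce. It had 13, 0, 6, 11 and 11 reads in cocaine IP 1 to 5, against 54 in unbound RNA, and 6, 14 and 5 reads in saline IP 1, 2 and 4, against 92 in the input. Pooled, it was 8.81-fold lower in cocaine IP (5.76 to 13.6) and 17.6-fold lower in saline IP (11.2 to 28.6). Kit, a receptor tyrosine kinase gene, had 1.33 to 2.30 CPM in cocaine IP and 18.7 CPM in unbound RNA, and 0.885 to 2.96 CPM in saline IP against 25.3 CPM in the input. Its mean log2 ratios were -3.22 ± 0.34 (SD, n = 5) and -4.002 ± 0.87 (SD, n = 3). Mast cells are another source of Kit, and 4 mast cell genes had 5 reads in all over the 10 libraries, with a summed level of 0.064 CPM at most in any library.

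Calb2, the calretinin gene (chromosome 8, 110137502 to 110168210), had 0.348, 0.179, 0.190, 0.156 and 0.653 CPM in cocaine IP 1 to 5, against 11.5 CPM in unbound RNA. It had 0.384, 0.136 and 0.402 CPM in saline IP 1, 2 and 4, against 4.13 CPM in the input. These IP values rest on 4 to 15 reads per library. Its mean log2 ratios were -5.46 ± 0.86 (SD, n = 5) and -3.90 ± 0.88 (SD, n = 3), and beside them its level in unbound RNA was 2.78 times that in the input (counting interval 2.14 to 3.65).

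Lhx6, which directs the fate of MGE-derived interneurons (chromosome 2, 36081953 to 36105408), had 5.48, 1.83, 1.49, 2.81 and 1.92 CPM in cocaine IP 1 to 5, against 27.2 CPM in unbound RNA. It had 3.43, 1.19 and 1.35 CPM in saline IP 1, 2 and 4, against 29.1 CPM in the input. As for Nos1, library 1 was the highest of each treatment. Lhx6 was 9.83-fold lower in cocaine IP (8.63 to 11.2) and 14.3-fold lower in saline IP (12.04 to 17.0). A small RNA model, Gm27953, overlaps it on the same strand.

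**Figure D2:**
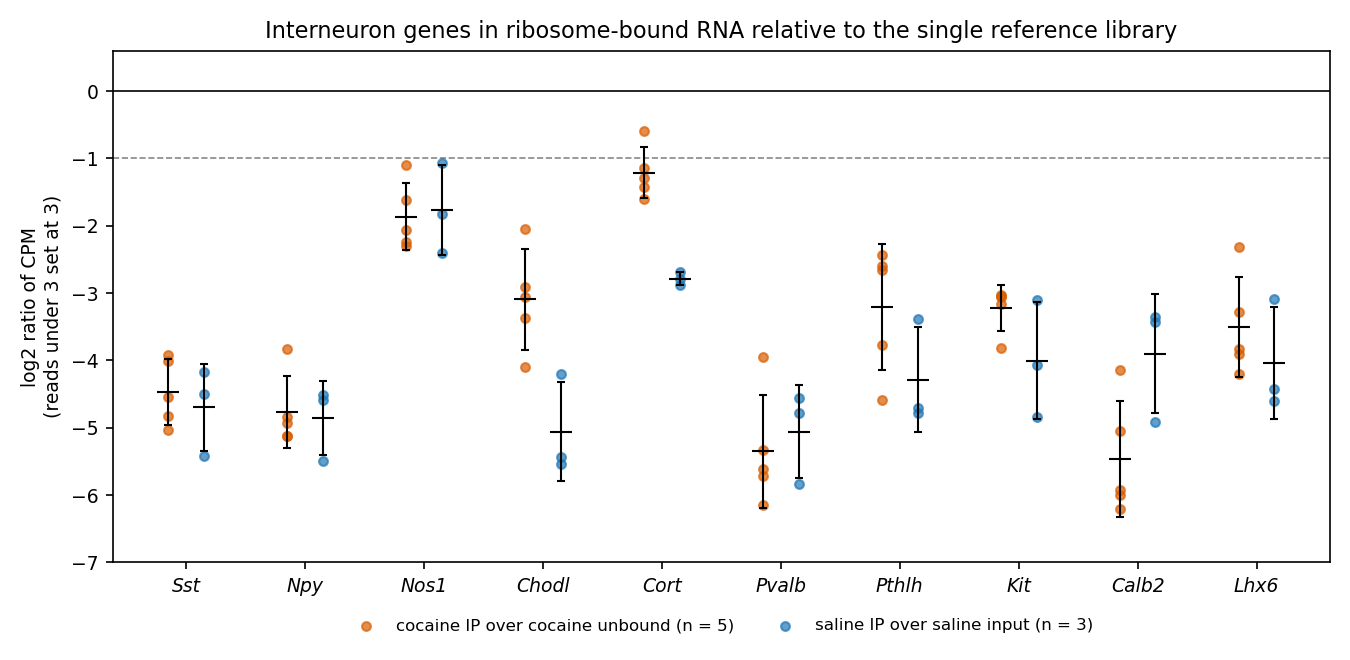
Log2 ratio of CPM for each gene, cocaine IP over unbound RNA and saline IP over input; points are IP libraries, black bars the mean ± SD, and the dashed line marks 2-fold lower, with reads under 3 set at 3. Nos1 lies nearest the line among genes above the read floor, at means of -1.86 and -1.76, and Pvalb lies far below it, at -5.35 and -5.06.

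An edgeR quasi-likelihood fit of all 10 libraries in 4 groups, which assumes that the lone unbound and input libraries vary like the IP libraries, called 9 of the 10 members lower against unbound RNA and 9 against input. The background of this rule was 23.8% and 20% of 16876 genes. Chodl, Pthlh and Calb2 are among the 9 through their level in the reference libraries, so the count is no support over them. The 6 members that averaged 1 CPM in the IP libraries were all called in both comparisons. Cort did not pass (edgeR adjusted p = 0.28 and 0.0569). Nos1 passed with the smallest sizes, -1.61 (SE 0.46, adjusted p = 0.0165) and -1.41 (SE 0.51, adjusted p = 0.0497), while Sst stood at -4.22 (SE 0.34, adjusted p = 9.6e-06) and -4.35 (SE 0.39, adjusted p = 4.49e-05).

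As sums over their genes, the somatostatin and parvalbumin classes did not differ in their IP ratios beyond the spread between libraries. Summed over the 5 somatostatin-class genes, log2 ratios averaged -4.23 ± 0.43 (SD, n = 5) against unbound RNA and -4.48 ± 0.61 (SD, n = 3) against input. Over the 3 parvalbumin-class genes they averaged -4.29 ± 0.48 (SD, n = 5) and -4.50 ± 0.62 (SD, n = 3). The difference between the classes within a library averaged 0.06 ± 0.19 (SD, n = 5; range -0.15 to 0.29) after cocaine and 0.01 ± 0.31 (SD, n = 3; range -0.25 to 0.36) after saline, less than its own spread between libraries. Sst supplies most reads of its class. In the parvalbumin class, Pvalb supplied 49.2 of 70.5 CPM in unbound RNA, but Kit 2.05 of 3.76 CPM in cocaine IP. The sums therefore mix genes with unlike mean log2 ratios, such as Pvalb (-5.35 and -5.06) and Kit (-3.22 and -4.002). Without Nos1 the somatostatin class averaged -4.49 ± 0.44 (SD, n = 5) and -4.76 ± 0.62 (SD, n = 3). What was left in the IP was 5.53% and 4.72% of the reference level for the somatostatin class, 5.34% and 4.71% for the parvalbumin class, 2.66% and 7.45% for Calb2 and 9.92% and 6.85% for Lhx6, cocaine and saline in turn.

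Per kilobase of exon, Sst had the highest level of the members in unbound RNA (149 CPM per kilobase) and in the input (186), followed by Npy (77.8 and 100.4) and Pvalb (47.2 and 41.3). Calb2 (6.59), Lhx6 (5.67) and Kit (2.10) came next in unbound RNA, and Lhx6 (6.05), Pthlh (3.09) and Kit (2.84) in the input. In both IP groups Sst, Npy, Pvalb and Lhx6 held places 1 to 4, at 7.06, 3.04, 1.36 and 0.563 CPM per kilobase in cocaine IP and 7.65, 3.61, 1.33 and 0.414 in saline IP. In cocaine IP the libraries ran from 4.53 to 9.84 CPM per kilobase for Sst and from 2.23 to 5.48 for Npy, so these neighbours overlapped, as Npy did with Pvalb (0.668 to 3.07) and Pvalb with Lhx6 (0.309 to 1.14).

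The residual interneuron level varied between IP libraries, and several lists of other cell types were high or low in the same libraries. The 10 members summed to 24.6, 10.8, 11.3, 14.9 and 16.4 CPM in cocaine IP 1 to 5 and to 18.6, 8.99 and 18.3 CPM in saline IP 1, 2 and 4. The 8 oligodendrocyte genes summed to 473, 215, 264, 291 and 305 CPM in the same cocaine libraries and to 496, 208 and 348 CPM in the same saline libraries. Library 1 was highest and library 2 lowest for both lists after cocaine and after saline. The 8 astrocyte genes summed to 123, 82.8, 109, 132 and 149 CPM in cocaine IP 1 to 5 and to 151, 46.8 and 136 CPM in saline IP 1, 2 and 4. Library 2 was again lowest, but after cocaine libraries 4 and 5 exceeded library 1. The order of libraries 1 and 2 was not particular to glia, and it was not shared by every list. Cholinergic interneuron genes summed to 51.3 and 19.6 CPM in cocaine IP 1 and 2 and to 38.9 and 19.1 CPM in saline IP 1 and 2. The globus pallidus list summed to 27.3 and 12.9 CPM and to 18.8 and 8.79 CPM in the same libraries, mostly from Etv1 (means of 16.5 CPM in cocaine IP and 11.5 CPM in saline IP). Indirect-pathway MSN genes ran the other way, at 7152 and 12558 CPM and at 8214 and 12222 CPM. So did the sum of the cortical glutamatergic neuron list (84.4 and 139 CPM, then 86.6 and 127 CPM), which is mostly Lamp5. Lamp5 averaged 104 CPM in cocaine IP and 95.5 CPM in saline IP. In the same groups Slc17a7 averaged 4.92 and 3.23 CPM and Tbr1 5.14 and 3.28 CPM. A wider list of interneuron genes, described below, also ran the other way (209 and 300 CPM, then 229 and 320 CPM). It holds Lamp5 too, so these sums are not separate observations. No gene of either glial list was at 0 in either IP group, and the part of any of these lists in the residual interneuron level was not tested.

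**Figure D3:**
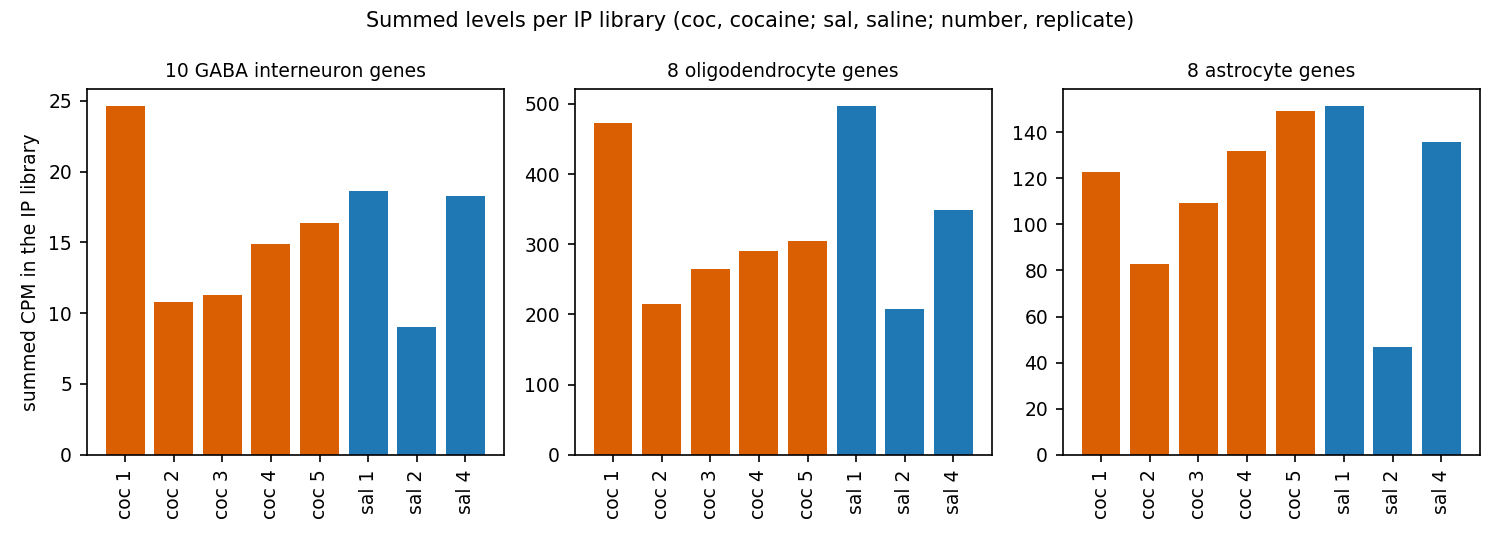
Summed CPM of the 10 interneuron genes, 8 oligodendrocyte genes and 8 astrocyte genes in each IP library (bars start at 0; cocaine, orange; saline, blue). Interneuron genes are highest in cocaine IP 1 (24.6 CPM) and lowest in saline IP 2 (8.99 CPM), where the oligodendrocyte sum is also lowest (208 CPM).

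With the interneuron members left out of the ranking, the genes whose profile over the 10 libraries lay closest to Sst were Sepp1, Olig1 and Gng11, with root mean square differences of 0.19, 0.24 and 0.25 in centred log2(CPM + 1). Under the same ranking the closest to Pvalb were Sepp1, Olig1 and Tspan2 (0.15, 0.25 and 0.26). The search covered 9370 genes averaging 5 CPM or more. Of the members, Npy lay at 0.29 from Sst and at 0.20 from Pvalb, nearer to Pvalb than Olig1 did, and Lhx6 at 0.64 and 0.57. Olig1 is a transcription factor gene of the oligodendrocyte lineage, and had 3.96 ± 2.14 CPM (SD, n = 5) in cocaine IP and 86.1 CPM in unbound RNA. Both reference libraries enter these distances.

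A wider list of 26 interneuron genes, which includes genes that MSNs also express, was less uniformly low. Of its measured genes 15 of 20 met the stricter rule in cocaine IP against unbound RNA (median log2 ratio -2.26 ± 0.35, SD, n = 5) and 17 of 23 in saline IP against input (-2.72 ± 0.41, SD, n = 3), with none higher. These counts and medians include genes that passed only through the reference library. Among genes that averaged 1 CPM in the IP libraries themselves, a limit added after the data were seen, 13 of 18 and 10 of 16 of the list were lower, beside 9.77% and 10.9% of all genes. At this limit the list had median log2 ratios of -1.80 and -2.22. Among its most abundant genes in unbound and input RNA, Kcnc1, a potassium channel gene of fast-spiking cells, had mean log2 ratios of -1.37 ± 0.26 (SD, n = 5) and -1.17 ± 0.11 (SD, n = 3). Satb1, a chromatin organizer gene, had -1.56 ± 0.09 and -1.03 ± 0.07 over the same libraries. Reln, which encodes the secreted protein reelin, had 0.35 ± 0.64 and -0.74 ± 0.57, on either side of no change. Sox6, a transcription factor gene downstream of Lhx6, and Kcnc2, another channel gene of fast-spiking cells, were singled out after their values were seen, as were Lamp5 and Syt2. Sox6 had -4.17 ± 0.71 (SD, n = 5) and -4.29 ± 0.77 (SD, n = 3), and Kcnc2 had -4.54 ± 0.70 and -4.77 ± 0.81 over the same libraries. Lamp5, a lysosome-associated membrane protein gene, had positive ratios of 1.15 ± 0.39 and 0.34 ± 0.38. Syt2, a synaptotagmin gene of fast transmitter release, had 0.53 ± 0.62 and 0.13 ± 0.59. Lamp5 was the most abundant gene of the list in the IP libraries, at 104 CPM in cocaine IP and 95.5 CPM in saline IP.

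Genes for GABA itself, which interneurons share with MSNs, were not low in the IP. Of 4 genes of GABA synthesis, packaging and uptake 0 passed the 2-fold limit in either direction, with medians of 0.17 ± 0.11 (SD, n = 5) and -0.06 ± 0.12 (SD, n = 3). Gad2, which makes GABA in nerve endings, had 1473 ± 263 CPM (SD, n = 5) in cocaine IP and 1640 CPM in unbound RNA, and after saline 1255 ± 261 CPM (SD, n = 3) in IP libraries and 1465 CPM in input RNA. Cholinergic interneurons, which express Drd2, give a second comparison among striatal interneurons. Of their measured markers 0 of 5 met the lower limit in cocaine IP (median -0.87 ± 0.58, SD, n = 5) and 2 of 6 in saline IP (-1.57 ± 0.56, SD, n = 3). Slc5a7, the choline transporter gene, had 13.9 ± 4.23 CPM (SD, n = 5) in cocaine IP and 22.5 CPM in unbound RNA, and after saline 12.01 ± 3.29 CPM (SD, n = 3) in IP libraries and 33.7 CPM in input RNA. The difference between these lists and the interneuron genes has no test.

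Cocaine and saline IP libraries did not differ detectably in interneuron transcripts. Of the 8 members that passed the low-count filter, 0 were called by edgeR (quasi-likelihood, no pairing, adjusted p under 0.05), and 0 had an unadjusted p under 0.05, with a background of 0% and 2.14% of 13800 genes. DESeq2 also called 0 members. The groups overlapped for all 10 members, where 2.35% of genes tested did not overlap. The members' median log2 fold change was 0.01, with 4 positive and 4 negative, and that of all genes was 0.01.

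Sst averaged 5.09 ± 1.72 CPM (SD, n = 5) in cocaine IP and 5.51 ± 2.21 CPM (SD, n = 3) in saline IP, a log2 fold change of -0.11 (SE 0.31, 95% interval -0.79 to 0.57). Npy averaged 1.72 ± 0.78 CPM (SD, n = 5) in cocaine IP and 2.04 ± 0.68 CPM (SD, n = 3) in saline IP (-0.23, interval -1.01 to 0.55). Nos1 averaged 1.73 ± 0.66 CPM and 1.87 ± 0.86 CPM in these groups (-0.10, interval -0.89 to 0.69). For these 3 genes, changes larger than about 2-fold lie outside or at the edge of the intervals. The upper limits, 0.55 to 0.69, are nearer to no change than the lower ones, and changes within the intervals were not excluded.

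Pvalb averaged 1.41 ± 1.02 CPM (SD, n = 5) in cocaine IP and 1.38 ± 0.56 CPM (SD, n = 3) in saline IP (0.04, interval -1.04 to 1.12). Kit differed by 0.21 (interval -0.59 to 1.01) and Pthlh by 0.07 (interval -1.58 to 1.72). Calb2 averaged 0.305 ± 0.209 CPM in cocaine IP and 0.307 ± 0.148 CPM in saline IP (-0.03, interval -1.32 to 1.27). The intervals of Pvalb, Pthlh and Calb2 reach beyond 2-fold on both sides. Chodl and Cort fell under the filter and were not tested.

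Lhx6 had the largest estimate, with 2.70 ± 1.63 CPM (SD, n = 5) in cocaine IP and 1.99 ± 1.25 CPM (SD, n = 3) in saline IP, a log2 fold change of 0.45 (SE 0.46, interval -0.56 to 1.47). It was higher after cocaine within each shared number, by 0.68, 0.62 and 1.06 for numbers 1, 2 and 4, and with the number as a block the estimate was 0.78 (SE 0.25, edgeR unadjusted p = 0.0071, adjusted p = 0.657). With the block, 1 of 7 members tested, Lhx6, thus had an unadjusted p under 0.05, where the same 6 libraries without it had 0 of 7, with a smallest p of 0.156 (edgeR). The background was 903 of 13580 genes with the block and 141 of 13580 without it. Without cocaine IP 1, and with no block, the Lhx6 estimate was 0.02 (SE 0.38). Cocaine IP 1 and 2 and saline IP 4 share lane 6, and within that lane Lhx6 differed by 1.40 (SE 0.74), Sst by -0.62 (SE 0.46), Pvalb by 0.17 (SE 0.75) and Kit by -0.75 (SE 0.52), with 1 saline library assumed to vary like the cocaine pair. The other lanes of the IP libraries hold 1 treatment each.

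**Figure D4:**
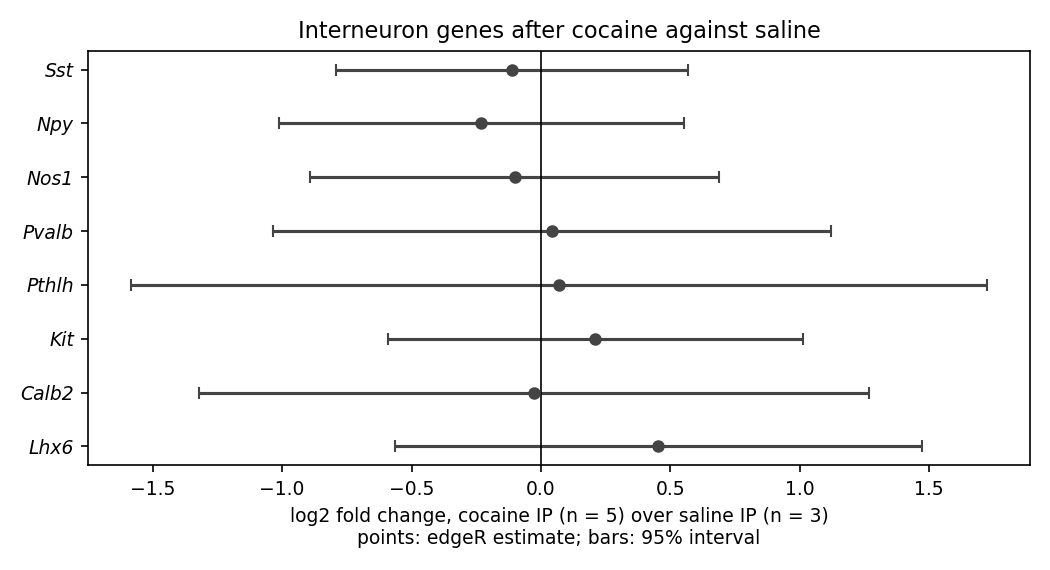
Log2 fold change of the 8 tested interneuron genes, cocaine IP over saline IP. Points are edgeR estimates without pairing and bars 95% intervals. All intervals cross 0, and those of Pthlh (-1.58 to 1.72) and Calb2 (-1.32 to 1.27) are the widest.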

How the data were processed

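The authors deposited raw read counts per gene symbol, a file for each library. STAR 2.0.0e, HTSeq and build mm10 are named in the submitters' processing notes; for annotation and strand setting, nothing is given in the sources used here. Groups, numbers and lanes come from the sample descriptions. The special counters of HTSeq and an empty entry named unknown stay out of library sizes. Reads in no feature were 12.9% to 14.4% of gene, no-feature and ambiguous reads in IP libraries, 27.4% in unbound RNA and 25.5% in the input.

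CPM are reads scaled to a common total of gene reads per library. IP libraries were set against the single unbound or input library as log2 ratios of CPM, with reads under 3 set at 3, for genes averaging 1 CPM or more. Counting intervals are exact (Clopper-Pearson on pooled reads, 95%). Cocaine was tested against saline with edgeR 4.0.16 in R 4.3.3 (quasi-likelihood, two-sided, TMM, filterByExpr, Benjamini-Hochberg over 13800 genes), and with DESeq2 1.42.0 as an alternative. The ratio and edgeR steps were tested on simulated counts.

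Libraries of the same number deviated together from their group means (correlations 0.709, 0.628 and 0.32 for numbers 1, 2 and 4 over 9616 genes averaging 5 CPM or more). Correlations between libraries of different numbers ran from -0.597 (cocaine IP 1 with saline IP 2) to 0.434 (cocaine IP 3 with saline IP 2). The highest of these exceeded the value for number 4. The numbers were taken to pair the libraries from the same-number correlations, since the meaning of a number is not in the labels. The pairing is therefore an assumption. It enters the differences within shared numbers and the fit with the number as a block. The main test of cocaine against saline and its intervals do not use it. No library is a copy of another: within groups, chi-square divided by its degrees of freedom was 21.5 at the lowest. The members were taken by symbol and not by a measured value. Even so, the members, lists and named genes (all members, the 3 most abundant genes of a list, the 3 profiles nearest Sst and Pvalb) were chosen with earlier results of these data known. Positions are from GENCODE on GRCm38, the assembly of mm10.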

Additional observations from a re-analysis of the deposited data

Results flagged for a closer look

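In the 5 cocaine IP libraries, 3 of the 10 members had a library far from the others. All 3 are among the 6 members that averaged 1 CPM there, and of all genes at that level 6.63% of 12143 had such a library, where chance alone flags about 5% of groups. Npy stood at 3.10 CPM in cocaine IP 1, with the nearest other library at 1.54 CPM. Pvalb stood at 3.20 CPM in cocaine IP 1, with the nearest at 1.22 CPM. Kit stood at 1.33 CPM in cocaine IP 2, below the nearest at 2.09 CPM. Cocaine IP 1 also held the highest oligodendrocyte sum of the cocaine libraries (473 CPM) and cocaine IP 2 the lowest (215 CPM); their part in these levels was not tested.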

How the results depend on the processing

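All 196 alternative log2 ratios of single members to unbound RNA or input were negative, and 10 lost the 2-fold call, 7 of them for Nos1. The count of members lower than input was 5 of 9 measured with a prior of 5 CPM and 5 of 5 measured with a mean of at least 5 CPM. Against unbound RNA it was 4 with a mean of at least 5 CPM, where only that many members were measured. Other scalings, a prior of 1 CPM, no filter, edgeR over 4 groups, a mean of at least 1 CPM in the IP libraries, the other single library as denominator (these last 2 chosen after seeing the data) and each library left out gave 6 to 10 against input and 6 to 9 against unbound RNA. TMM scaling moves the median of all genes to 0.11 against input and 0.18 against unbound RNA, where CPM gave -0.10 and -0.02.

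For cocaine against saline, 0 members were called under any alternative. Estimates turned sign as follows, the cause not tested. With lane as a covariate Nos1 was 0.24 and Kit -0.74, and within lane 6 alone 0.23 and -0.75. With the replicate block Nos1 was 0.10 and Pthlh -0.10, and in the same 6 libraries without the block 0.084 and -0.026. Genes at unadjusted p under 0.05 numbered 903 of 13580 with the block and 141 of 13580 in the same 6 libraries without it (295 of 13800 in all 8 libraries). The block changed no call at adjusted p, while Lhx6 alone of the members reached an unadjusted p of 0.0071. Without both libraries numbered 1 (chosen after seeing the data) Nos1 was 0.050, Pvalb -0.44, Pthlh -0.33 and Calb2 0.079. With single libraries left out, estimates ran from -0.39 to 0.17 for Sst, -0.36 to 0.28 for Nos1, -0.52 to 0.29 for Pvalb, -0.18 to 0.67 for Pthlh, -0.11 to 0.79 for Kit, -0.47 to 0.21 for Calb2 and 0.02 to 1.06 for Lhx6.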

Other observations

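The unbound and input libraries, 1 each and from different treatments, differed in their interneuron makeup beyond counting error. Calb2 had 11.5 CPM in unbound RNA and 4.13 CPM in the input, a ratio of 2.78 (counting interval 2.14 to 3.65). Of 14158 genes, 1.46% were at least 2-fold higher in unbound RNA and 3.63% at least 2-fold lower. Pvalb was slightly higher, at 1.14 times its input level (1.04 to 1.26). Chodl was 0.345 times its input level (counting interval 0.225 to 0.518) and Pthlh 0.517 times (0.363 to 0.732). Sst and Npy were 0.799 times (0.754 to 0.846) and 0.775 times (0.708 to 0.847), while Lhx6 (0.832 to 1.06) and Nos1 (0.776 to 1.32) did not differ beyond counting error. Genes of cortical glutamatergic neurons were mixed, and their list summed to 264 CPM in unbound RNA and 237 CPM in the input. Tbr1, a transcription factor gene of this list, had 60.3 CPM in unbound RNA and 30.1 CPM in the input. Slc17a7 (48.7 and 52.0 CPM) and Lamp5 (45.8 and 73.9 CPM) of the same list were lower in unbound RNA. With no replicate, treatment and fraction cannot be told apart in these values.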
